A study of Zea mays with 9 samples.

Results

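The transcripts described here are those that were abundant in germinating maize seeds whatever the treatment. A gene was taken as a member where its mean FPKM (a level that corrects fragment numbers for gene length and library size) reached 300 in each of the 3 groups and where no pair of groups differed by 0.6 or more in log2(group mean + 1). Of 39301 genes in the deposited table, 80 met both conditions. A further 48 reached 300 FPKM in every group but differed by more, so members made up 62.5% of the 128 genes abundant in all groups. The genes were thus chosen by the group means and their differences in these same libraries, so both are given below as description and no test is made on them.

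The study measured RNA from seeds at germination in 3 groups of 3 biological replicates, with total RNA taken with a Tiangen kit and mRNA libraries made with an NEB kit. CK is a label that the submitters do not explain and that usually marks untreated controls. NaCl marks salt, and in NaCl+MT the seeds also had melatonin, an indoleamine made by plants and animals. Dose, time, plant line and the number of seeds in a sample are not given, and the spread between replicates may be partly technical.

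Germinating seeds draw on stored reserves while they rebuild their protein machinery. In the oil-rich scutellum of maize, the glyoxylate cycle turns carbon from fatty acids into precursors of sugar, with isocitrate lyase and malate synthase as its defining enzymes, and glycolysis carries sugar to pyruvate in the cytosol. Ribosomal proteins and elongation factor 1-alpha serve protein synthesis, and the mRNAs of such housekeeping genes are often used as a standard against which other transcripts are compared.

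Members named by RefSeq fell into 4 kinds. There were 2 enzymes of the glyoxylate cycle, 3 of glycolysis, 7 genes linked to translation and 10 others. These 22 were 27.5% of the members, whereas 9.13% of the 22379 genes with enough signal to be tested carried a name. Another 42 members matched a RefSeq gene without a name, and 16 matched none, 10 of which have the clone-based IDs that begin with AC. No sequence of these genes was analysed here.

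**Figure D1:**
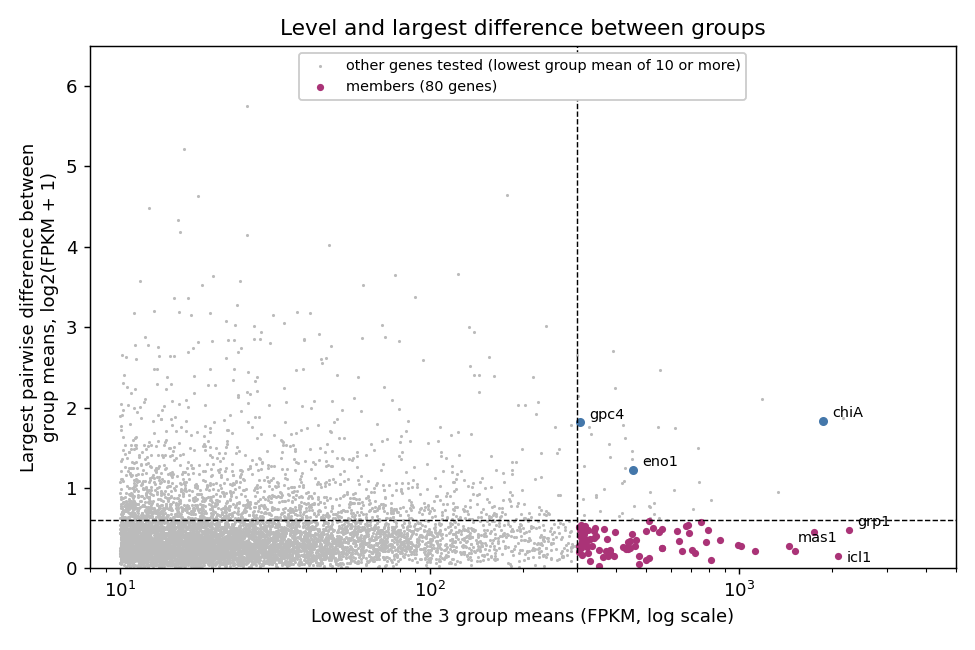
Level and stability of the genes with a lowest group mean of at least 10 FPKM. The horizontal axis gives the lowest of the 3 group means (FPKM, log scale) and the vertical axis the largest pairwise difference of log2(group mean + 1); dashed lines mark 300 FPKM and 0.6, and the 80 members lie in the lower right corner, with icl1, mas1 and grp1 at its far end and the non-members gpc4, eno1 and chiA above it.

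The mean over the 9 libraries ran from 325.5 to 2697 FPKM among members, with a median of 467. It reached 1000 in 9 members, lay between 500 and 1000 in 25 and below 500 in 46. Of the 100 genes with the highest mean in the whole table, 40 were members. The largest difference between any 2 group means had a median of 0.31 on the log2 scale over the members. It was under 0.1 in 3 members, under 0.2 in 15 and under 0.3 in 40. The 3 closest were RGP (0.03), crt2 (0.05) and rps6-2 (0.09).

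The stable share was not highest among the most abundant genes. Among the 11916 tested genes whose lowest group mean was 1 to 10 FPKM, 66.1% stayed within 0.6. The share was 79.3% from 10 to 30 FPKM, 77.0% from 30 to 100 and 72.5% from 100 to 300. At 300 FPKM and above it was the 62.5% given above, and over all tested genes it was 66.9%. These shares count genes, which are not independent replicates, and noise at low levels enters them as well.

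At the lower edge of the level, RP-P0 had a NaCl mean of 304 FPKM, and the unnamed genes GRMZM2G108849 and GRMZM2G354604 had lowest means of 304 and 304. Just outside stood tif5A (GRMZM2G144030), a translation factor gene, with a lowest mean of 298 FPKM, Pgk-2 (GRMZM2G382914), a phosphoglycerate kinase gene of glycolysis, with 295, and GRMZM2G032564 with 289.7. At the edge of the difference, GRMZM2G109959, GRMZM2G161154 and GRMZM2G157018 were inside at 0.59, 0.57 and 0.54, and GRMZM2G003762, GRMZM5G863656 and AC209810.3_FG002 were outside at 0.60, 0.61 and 0.62. Genes on both sides of either edge were thus close in value.

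The glyoxylate cycle enzymes were among the most abundant transcripts of all. Isocitrate lyase (icl1, GRMZM2G056369), which splits isocitrate into succinate and glyoxylate, ranked 6 among all genes by its mean over the 9 libraries. With replicates always given in the order 1 to 3, its FPKM was 1623, 2582 and 2117 in CK, 1674, 2205 and 2369.9 in NaCl and 2394, 2189 and 2336 in NaCl+MT. The groups overlapped: replicate 1 was low in CK and in NaCl, and the NaCl+MT libraries lay close together. The means were 2107 ± 479.7 (SD, n = 3) in CK, 2083 ± 364 in NaCl and 2306 ± 105 in NaCl+MT.

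Malate synthase (mas1, GRMZM2G102183), which joins glyoxylate and acetyl-CoA, ranked 11. Its FPKM was 1364, 2032 and 1668 in CK, 1348, 1466 and 1539.9 in NaCl and 1679, 1801 and 1815 in NaCl+MT. The 3 NaCl+MT values lay above all 3 NaCl values, and CK overlapped both groups. As in icl1, CK replicate 2 was the highest and NaCl replicate 1 the lowest of its group. The largest pairwise difference was 0.28, between NaCl+MT and NaCl.

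Cytosolic enzymes of glycolysis gave 3 members. Glyceraldehyde-3-phosphate dehydrogenase (gpc2, GRMZM2G180625), which makes the first NADH of the pathway, had 656, 673 and 629 FPKM in CK, 831, 786 and 649 in NaCl and 536, 733 and 806 in NaCl+MT. The CK libraries were close to each other, and both other groups overlapped them. Aldolase (ald1, GRMZM2G057823) had 414, 391 and 528 in CK, 416, 651 and 446 in NaCl and 455, 408 and 401 in NaCl+MT. NaCl replicate 2 was the only library above 600, and the groups overlapped.

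Enolase (eno2, GRMZM2G048371), which makes phosphoenolpyruvate, had 368, 382 and 428 FPKM in CK, 273, 321 and 385 in NaCl and 251, 349 and 330.0 in NaCl+MT. All NaCl+MT values lay below the CK values, and NaCl overlapped both. Its group means were 393 ± 31.5 (SD, n = 3), 326 ± 56.5 and 309.8 ± 51.9, a largest difference of 0.34. These 3 genes had no common order of groups: the lowest mean was in CK for gpc2 and in NaCl+MT for ald1 and eno2.

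Enolase and the dehydrogenase each had another gene that reached 300 FPKM in every group and was not stable. In maize, eno1 and the dehydrogenase genes gpc3 and gpc4 are known to respond to oxygen shortage, and eno2, gpc1 and gpc2 are known as genes that do not. The gene eno1 (GRMZM2G064302) had 454 ± 25.3 FPKM (SD, n = 3) in CK, 1063 ± 132 in NaCl and 473 ± 32.4 in NaCl+MT. It was higher with NaCl by 1.22 on the log2 scale (SE 0.19, Benjamini-Hochberg adjusted p = 0.00141 in limma) and lower in NaCl+MT than in NaCl (-1.16, SE 0.19, adjusted p = 0.00265). Over 20 other settings these adjusted p-values ran from 0.000215 to 0.00897 and from 0.000411 to 0.0171. Both comparisons share the NaCl libraries.

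The gene gpc4 (GRMZM2G176307) had 306 ± 47.2 FPKM in CK, 1082 ± 228 in NaCl and 306 ± 23.3 in NaCl+MT, with log2 fold changes of 1.81 (SE 0.22, limma adjusted p = 0.000251) and -1.80 (SE 0.22, adjusted p = 0.000395). The NaCl values of eno1 and gpc4 lay above every value of the other groups. The highest adjusted p of gpc4 over the same 20 settings was 0.00195 and 0.00332. The other dehydrogenase genes were not called: gpc1 had 222, 189 and 229 FPKM as group means, and gpc3 had 237, 329 and 181. For NaCl+MT against NaCl, gpc3 was close to the threshold of 0.05 (-0.82, SE 0.26, limma adjusted p = 0.0528). Whether eno2 and gpc2 differed in their change from eno1 and gpc4 was not tested, since stability was the condition for membership.

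**Figure D2:**
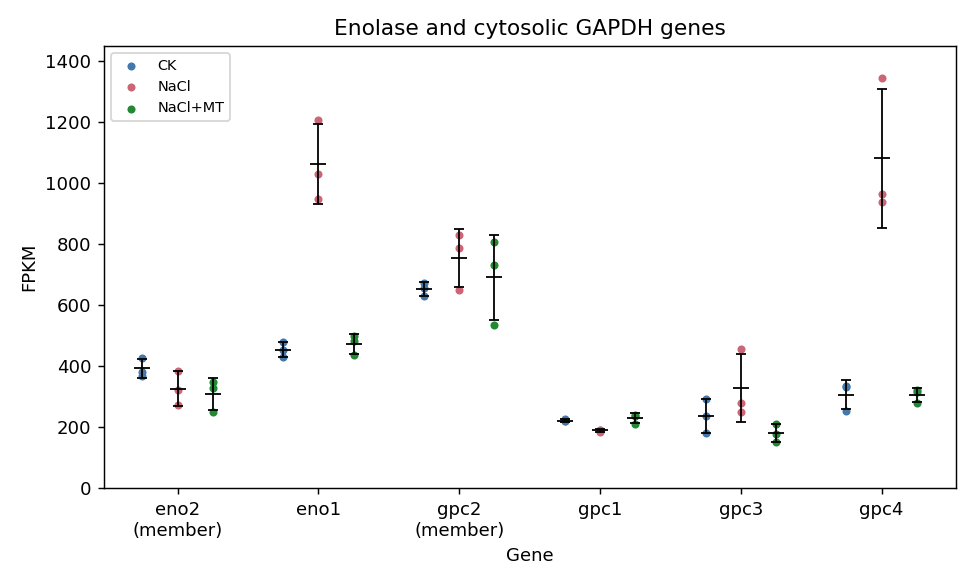
FPKM of the enolase genes and the cytosolic glyceraldehyde-3-phosphate dehydrogenase (GAPDH) genes in each library. Points are libraries coloured by group, and bars give the mean and SD of 3 libraries; eno1 and gpc4 lie at 938 to 1344 FPKM in the NaCl libraries, and the members eno2 and gpc2 stay between 251 and 831 in all 9.

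Of the 16 other tested genes with a symbol of glycolysis (INO1 and hk symbols, which other kinds of genes share, included), 4 rose with NaCl and 0 fell in limma (13.6% and 12.4% of all tested genes), and 4 fell and 0 rose in NaCl+MT against NaCl (7.02% and 11.6%). In NaCl+MT against CK 0 were called in either direction, where limma called 0.961% of all tested genes. The other genes called, PK (GRMZM2G003883) and PK1 (GRMZM2G328785), have symbols of pyruvate kinase, but PK1 is also listed as ptk1, so its place in the pathway is uncertain. PK had 61.9 ± 2.28 FPKM (SD, n = 3) in CK, 110.1 ± 26.7 in NaCl and 57.2 ± 8.98 in NaCl+MT.

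Genes linked to translation were the largest of the kinds grouped by role, with group means from 304 to 596 FPKM. They include TCTP, named for the control of its own mRNA, and GRMZM2G047732, whose product is uncertain. Ribosomal protein S4 of the small subunit was represented by 2 genes of the same name. The first (GRMZM2G125271) had 657, 500.002 and 631 FPKM in CK, 372, 537 and 488 in NaCl and 548, 499 and 481 in NaCl+MT. The second (GRMZM2G035017) had 388, 308 and 412 in CK, 265, 400.1 and 309 in NaCl and 368, 353 and 364 in NaCl+MT. In both, CK replicate 2 and NaCl replicate 1 were the lowest of their groups, and the groups overlapped.

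Ribosomal protein S6 (rps6-2, GRMZM5G851698), a small-subunit protein known as a target of growth-linked kinases, had 375, 304 and 375 FPKM in CK, 293, 414 and 333 in NaCl and 339, 322 and 331 in NaCl+MT. Its group means of 351 ± 41.1 (SD, n = 3), 347 ± 61.9 and 331 ± 8.73 differed by less than the spread within CK and within NaCl. The acidic protein P0 of the large-subunit stalk (RP-P0, GRMZM2G066460) had 404, 311 and 390.0 in CK, 220.1, 396 and 295 in NaCl and 358, 359 and 382 in NaCl+MT. NaCl replicate 1 was again the lowest of the 9 libraries in both genes.

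The gene GRMZM2G047732 is listed as RPL27A, RPS27A and UBF9. The first is a name of a large-subunit protein and the others of ubiquitin joined to a small-subunit protein, so its product is uncertain. It had 382, 305 and 404 FPKM in CK, 259, 408 and 285 in NaCl and 514, 356 and 354 in NaCl+MT. Its level kept a nearly fixed ratio to that of GRMZM2G047161, a gene below the limit, at 0.259 on average with an SD of the log2 ratio of 0.0168 over the 9 libraries, so the counting may have split reads between near-identical sequences and both values are uncertain. Another gene listed as RPS27A (GRMZM2G431821) had 326, 252 and 371 FPKM as group means and was no member.

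Elongation factor 1-alpha (EF1A, GRMZM2G153541), which brings aminoacyl-tRNA to the ribosome, had 424, 347 and 445 FPKM in CK, 218, 389 and 323 in NaCl and 331, 389 and 378 in NaCl+MT. NaCl replicate 1 was low, and the groups overlapped. TCTP (GRMZM2G075624), a conserved growth-related protein named for the control of its mRNA at translation, had 483, 438 and 525 in CK, 348, 549 and 483 in NaCl and 336, 393 and 392 in NaCl+MT. All NaCl+MT values of TCTP were below the CK values.

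These 7 genes shared an order of libraries inside the groups that membership did not ask for. CK replicate 2 was the lowest CK library in 7 of 7, and NaCl replicate 1 was the lowest and replicate 2 the highest NaCl library in 7 of 7. Over all 80 members, CK replicate 2 was the lowest of its group in 39, NaCl replicate 1 in 48, and NaCl replicate 2 the highest in 45. Over all tested genes, CK replicate 2 was the lowest of its group in 30.7% and NaCl replicate 1 in 44.5%. The share with NaCl replicate 2 highest was not computed over all tested genes, so its count is not read as a trait of the members. In the glyoxylate cycle genes the order in CK was the opposite, with replicate 1 lowest and replicate 2 highest. The relative depth of the libraries is given further on, and its part in these orders was not tested.

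The mean in NaCl was below that in CK for all 7 translation genes as deposited, and after median-ratio scaling or a constant FPKM sum, but for 6 after quantile normalisation. The median difference was -0.20 on the log2 scale as deposited and 0.12, with 2 of 7 genes lower, without NaCl replicates 1 and 3 together. That leaves only NaCl replicate 2, the highest NaCl library in all 7 genes. With 1 library left out, 5 to 7 of the 7 genes stayed lower in NaCl.

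Of the 27 other tested genes with a symbol of a ribosomal protein, 0 rose and 2 fell with NaCl in limma, where 13.6% and 12.4% of all tested genes did, and in NaCl+MT against NaCl 2 rose and 0 fell, where 11.6% and 7.02% did. The falls were of rpl19 (GRMZM2G171444), from 32.9 ± 3.63 to 19.4 ± 3.19 FPKM (SD, n = 3), and arpp2b (GRMZM2G114954), an acidic stalk protein gene, from 151 ± 1.83 to 88.5 ± 10.8. The rises were of rpl19, to 34.7 ± 1.61, and L29 (GRMZM2G028216), from 5.09 ± 1.01 to 10.1 ± 0.318. Their adjusted p-values of 0.00514, 0.015, 0.00409 and 0.00551 became 0.12, 0.0717, 0.0927 and 0.119 without NaCl replicates 1 and 3. Of the 31 tested genes taken as ribosomal protein genes by symbol, 21 stayed within a difference of 0.6 at any level, where 66.9% of all tested genes did. The 4 of these 31 that reached 300 FPKM in every group were all members. RP-P0, also a member, has a symbol that this list did not take in, and genes without a name are not in it.

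**Figure D3:**
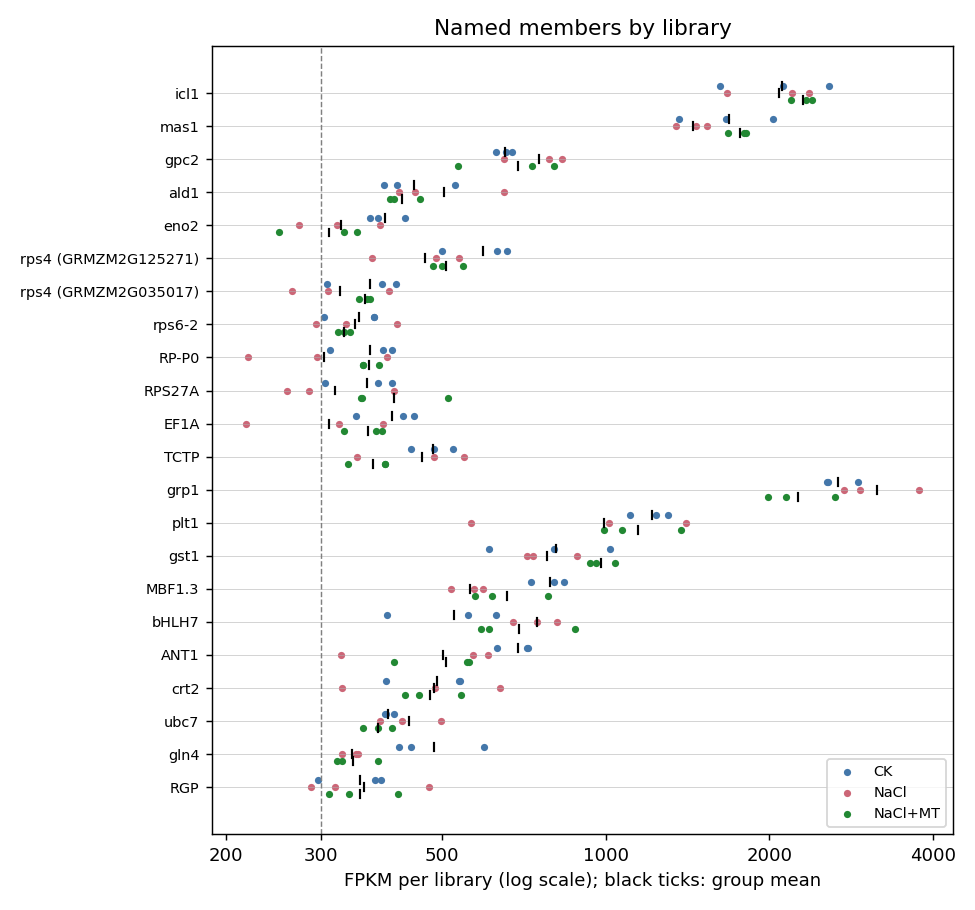
FPKM of the 22 named members in each library (log scale), ordered by kind from the glyoxylate cycle at the top to the other genes at the bottom. Points are single libraries coloured by group, black ticks are group means and the dashed line marks 300 FPKM; single NaCl libraries of the translation genes fall below 300, down to 218 for EF1A, although every group mean is above it.

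The member with the highest level was grp1 (GRMZM2G080603), whose symbol is that of a glycine-rich protein and which ranked 3 among all genes. It had 2909, 2557 and 2564 FPKM in CK, 3779.7, 2939.9 and 2748 in NaCl and 1988, 2146 and 2643 in NaCl+MT. All NaCl values lay above all NaCl+MT values, and CK overlapped NaCl. The group means were 2677 ± 201 (SD, n = 3), 3156 ± 549 and 2259 ± 342. Its largest log2 difference, between NaCl+MT and NaCl, was -0.48, where that of icl1, the next member by level, was 0.15.

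The lipid transfer protein gene plt1 (GRMZM2G101958), whose product moves lipids between membranes in vitro, had 1110.2, 1303 and 1240.3 FPKM in CK, 565, 1013 and 1404 in NaCl and 1378, 995 and 1074 in NaCl+MT. The NaCl libraries held both its lowest and its highest value, so its group mean of 994 ± 419.8 covers a wide spread. Glutathione S-transferase I (gst1, GRMZM2G116273), a detoxifying enzyme, had 610.1, 805 and 1019.6 in CK, 736, 886 and 716 in NaCl and 1042, 934 and 961 in NaCl+MT. All NaCl+MT values of gst1 lay above the NaCl values.

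Members also included regulators of transcription. MBF1.3 (GRMZM5G800112), a multiprotein bridging factor that joins activators to the basal machinery, had 839, 805 and 729 FPKM in CK, 572, 520.3 and 596 in NaCl and 784, 575 and 617 in NaCl+MT. The helix-loop-helix gene bHLH7 (GRMZM2G042920) had 397, 628 and 557 in CK, 676, 749 and 815 in NaCl and 878, 611 and 589.8 in NaCl+MT. These genes went opposite ways: all NaCl values lay below CK in MBF1.3 and above CK in bHLH7, with differences of -0.49 and 0.50.

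ANT1 (GRMZM5G837108), the adenine nucleotide translocator that exchanges ATP and ADP across the inner mitochondrial membrane, had 716, 632 and 721 FPKM in CK, 327, 607 and 570.3 in NaCl and 409, 561 and 555 in NaCl+MT. All values of either treated group lay below CK. Glutamine synthetase gln4 (GRMZM5G872068), a cytosolic enzyme of ammonium assimilation, had 417, 598 and 438 in CK, 348, 350.3 and 327 in NaCl and 381, 327 and 321 in NaCl+MT, and again no treated library reached the CK values. The other glutamine synthetase genes were less abundant, with group means of at most 209.8 FPKM, and the second translocator gene ANT2 had 184, 148 and 158.

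The remaining named members differed little between groups. Calreticulin (crt2, GRMZM2G358059), a calcium-binding chaperone of the endoplasmic reticulum, had group means of 491 ± 82.7 (SD, n = 3), 484 ± 156 and 474 ± 59.4 FPKM, with single libraries from 328 to 639.6. The reversibly glycosylated polypeptide RGP (GRMZM2G073725), linked to cell wall sugars, had 353 ± 49.7, 359.6 ± 99.6 and 354 ± 54.5, with libraries from 287 to 473. In both genes NaCl replicate 1 was the lowest and NaCl replicate 2 the highest of the 9 libraries, so equal group means went with unequal libraries. The ubiquitin-conjugating enzyme gene ubc7 (GRMZM2G012052) was steadier, from 359 to 497 FPKM, with means of 398 ± 8.77, 434 ± 57.4 and 382 ± 23.0.

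The members without a name held genes of high level too. GRMZM2G080466, the third member by level, had 1320.0, 1903 and 1993 FPKM in CK, 3126, 2429 and 1590.0 in NaCl and 1986, 1801 and 2065 in NaCl+MT. The NaCl libraries spanned NaCl+MT and overlapped CK, whose replicate 1 was the lowest library. GRMZM2G181371 and GRMZM2G181376 had group means of 1530.1, 1753 and 1509.8 and of 1139, 1305 and 1125. Their ratio was 0.744 to 0.746 in all 9 libraries, with an SD of the log2 ratio of 0.0015, where the next closest of 3160 pairs of members had 0.0629 and the median pair 0.351. The same reads may be counted for both, so they cannot be told apart and may be 1 signal.

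Further unnamed members above 800 FPKM were AC199526.5_FG002, GRMZM2G177828, GRMZM2G138468, GRMZM2G161154, GRMZM5G815894, GRMZM2G157018 and GRMZM5G848768. GRMZM2G157018 had 999.9, 969 and 1029 FPKM in CK, 501, 754 and 802 in NaCl and 855, 836 and 821 in NaCl+MT, and no pair of groups overlapped. GRMZM2G138468 had 927, 1123 and 1179 in CK, 789, 447 and 1149 in NaCl and 972, 1199 and 1158 in NaCl+MT, with NaCl replicate 2 far below the rest.

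Stability of the group means did not mean equal libraries. The ratio of the highest to the lowest of the 9 libraries was 1.28 to 3.91 over the members, with a median of 1.80, and 57 members stayed within 2-fold and 11 within 1.5-fold. The steadiest was GRMZM2G175273, with 422, 393 and 382 FPKM in CK, 368, 362 and 367 in NaCl and 372, 328 and 389.6 in NaCl+MT. GRMZM2G102471, GRMZM5G815894 and AC230013.2_FG007 followed at ratios of 1.31, 1.31 and 1.34. None of the 4 has a name in the annotation used.

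At the other end GRMZM2G449274 had 547, 495 and 608 FPKM in CK, 218, 793 and 712 in NaCl and 852, 685 and 711 in NaCl+MT. GRMZM2G149751 had 298, 279 and 349.9 in CK, 139, 511 and 454 in NaCl and 484, 431 and 427 in NaCl+MT. In both, NaCl replicate 1 was far below the other NaCl libraries, and all NaCl+MT values exceeded CK. They adjoin each other in the RefSeq order of genes, as do TCTP and GRMZM2G108474, and GRMZM2G109959 and GRMZM2G122276. GRMZM2G108474 had 367, 363 and 382 in CK, 479, 407 and 382 in NaCl and 248, 345 and 349 in NaCl+MT, highest in NaCl and lowest in NaCl+MT, where TCTP had its highest mean in CK. The next widest were GRMZM2G138468 and GRMZM2G354604, at ratios of 2.68 and 2.51.

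The coefficient of variation within a group had a median over the members of 13.9% in CK, 19.4% in NaCl and 10.2% in NaCl+MT. The 48 abundant genes that were not stable had medians of 18.6%, 30.1% and 10.9%, and stable genes with a lowest group mean of 100 to 300 FPKM had 12.8%, 19.1% and 9.94%. In all 3 sets the median was highest in NaCl.

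**Figure D4:**
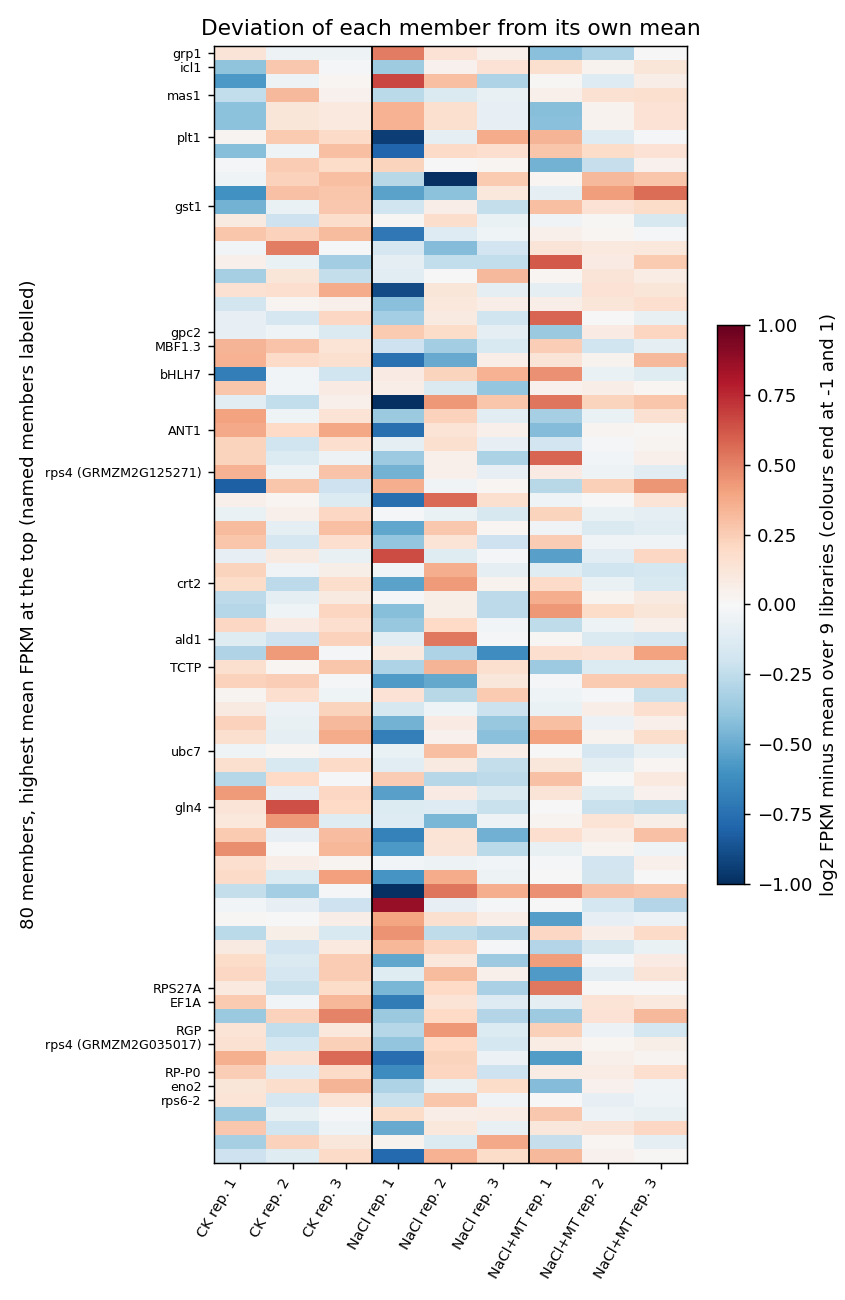
Deviation of each member from its own mean, in log2 FPKM, for the 80 members (rows, highest level at the top, named ones labelled) and the 9 libraries (columns, groups parted by lines). Red is above and blue below the mean of the gene over the 9 libraries, with colours ending at 1 and -1; NaCl replicate 1 is the bluest column, as the lowest library of 38 of the 80 members.

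NaCl replicate 1 was the lowest of the 9 libraries in 38 of the 80 members, and its median deviation from the mean of each member was -0.32 on the log2 scale, against -0.09 to 0.14 in the other 8. The share of all tested genes with this library lowest of the 9 was not computed. It was the lowest of its group in 44.5% of them. The lowest group mean was in NaCl for 42 members, in NaCl+MT for 25 and in CK for 13, and the highest was in CK for 35, in NaCl+MT for 25 and in NaCl for 20. In 54 members the NaCl mean was below the CK mean, and the median difference was -0.14 where that of all tested genes was 0.04. For NaCl+MT against NaCl the median was 0.14 over the members and 0.02 over all tested genes, and for NaCl+MT against CK -0.05 and 0.07.

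Most members stayed lower in NaCl than in CK with any 1 library left out, but not without NaCl replicates 1 and 3 together. Leaving out 1 library left 50 to 62 members lower in NaCl than in CK and 37 to 54 lowest in NaCl. Without NaCl replicates 1 and 3 together, 35 members in place of 54 were lower in NaCl than in CK, and 25 in place of 42 had their lowest mean there. That leaves only NaCl replicate 2, the highest NaCl library in 45 of the 80 members. These lower counts therefore cannot be told apart from the choice of the library kept. NaCl replicate 3 was the shallowest library, at a relative depth of 0.538 with that of CK replicate 1 taken as 1, and listed 12558 genes at 0, where the others had 9986 to 10802. The other depths were 1.82 and 1.28 for CK replicates 2 and 3, 1.16 and 1.25 for NaCl replicates 1 and 2 and 0.970, 1.01 and 0.891 in NaCl+MT. The ratio read for CK replicate 2 was 0.909. It was multiplied by 2 because 39 of its low values lay midway between whole steps and 23 on them, so its depth is less certain. The absolute depth is unknown, so no counting error is given. The part of depth in these counts was not tested.

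In the fit across all tested genes, limma called 0 of the 80 members for NaCl against CK at an adjusted p below 0.05, where 26% of all tested genes were called. It called 0 for NaCl+MT against NaCl and 0 for NaCl+MT against CK, where 18.6% and 0.961% of all tested genes were called (0.679% higher and 0.282% lower in the last). At an unadjusted p below 0.05 the counts were 5, 4 and 1, where 39.1%, 32.3% and 18.3% of all tested genes passed. Leaving out NaCl replicate 1, 2 or 3 gave 1, 3 and 2 called members for NaCl against CK, beside 22.2%, 27.1% and 22.5% of all tested genes. Leaving out NaCl replicate 2 or 3 gave 2 and 1 for NaCl+MT against NaCl, beside 19% and 15.4%. Because the same differences chose the members, nothing is read from these counts.

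The 3 values of 2 groups did not overlap in 11 of the 80 members for NaCl and CK, 13 for NaCl+MT and NaCl and 15 for NaCl+MT and CK. Over all tested genes this held for 40.9%, 36.6% and 31.1%. The limit on differences used the same values, so nothing is read from the members' counts. Among the 48 abundant genes outside the limit on differences, limma called 30 for NaCl against CK (12 higher, 18 lower), 18 for NaCl+MT against NaCl (10 higher, 8 lower) and 0 for NaCl+MT against CK. The shares of all tested genes called were 26%, 18.6% and 0.961%. Differences of the same group means placed these 48 genes outside the limit, so nothing is read from their counts either.

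Together the members held 9.33% ± 0.454 (SD, n = 3) of the FPKM sum in CK, 8.92% ± 0.611 in NaCl and 9.43% ± 0.187 in NaCl+MT. The single libraries had 8.82%, 9.47% and 9.69% in CK, 8.23%, 9.41% and 9.11% in NaCl and 9.31%, 9.35% and 9.65% in NaCl+MT. The groups overlapped, with NaCl replicate 1 the lowest. In that library genes that reached 300 FPKM in 1 or 2 groups only held 12.2%, against 8.25% to 9.24% in the other 8. This class was chosen by group means of the same libraries, to which NaCl replicate 1 belongs, so nothing is read from its larger share. In whole seeds, fewer cells of a type and less RNA per cell cannot be told apart.

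**Figure D5:**
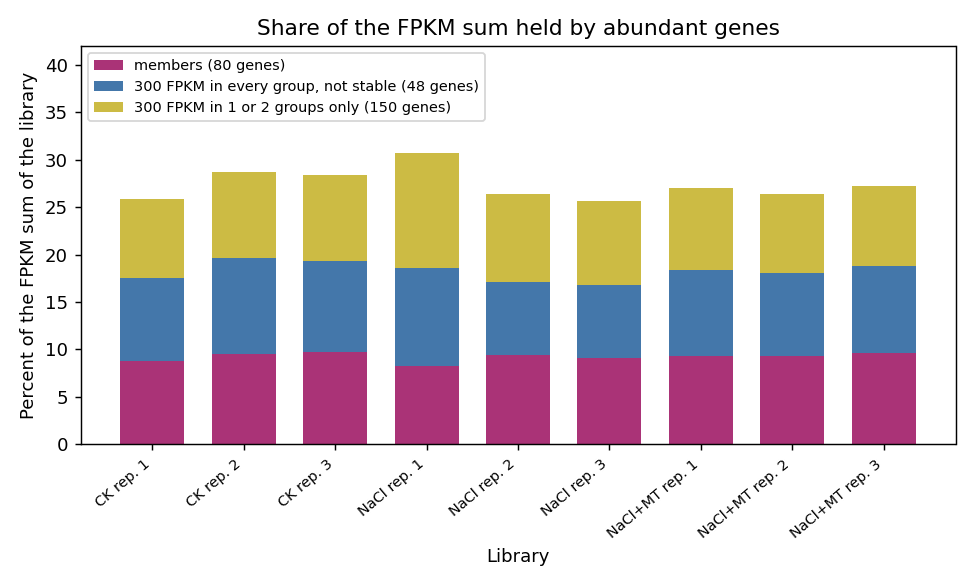
Share of the FPKM sum of each library (percent, bars from 0) held by the 80 members, by the 48 genes abundant in every group but not stable, and by the 150 genes at 300 FPKM or more in 1 or 2 groups only. The members hold 8.23% to 9.69% in every library, and the third class, chosen by group means of these libraries, is largest in NaCl replicate 1.

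Other families that serve as references in expression studies were mostly outside the set. A list of 18 tested genes by symbol held 15 of actin, tubulin, profilin and actin depolymerising factor and 3 of auxin-binding proteins, whose symbols begin alike. Of the 18, 0 were members and 0 reached 300 FPKM in all groups. Among the 15, 8 fell and 0 rose with NaCl in limma (12.4% and 13.6% of all tested genes), and 6 rose and 0 fell in NaCl+MT against NaCl (11.6% and 7.02%), but without NaCl replicates 1 and 3 these were 3 falls and 1 rise. The actin gene listed as ACT-1 (GRMZM2G126010) had group means of 46.6, 73.1 and 46.3 FPKM. Of 11 histone genes 0 were members, 7 fell with NaCl and 6 rose in NaCl+MT against NaCl, beside the same shares of all tested genes. Without those libraries 0 and 0 histone genes were called, where limma called 11.2% and 7.48% of all tested genes. A list of 18 genes with symbols used for reference genes (its cyp symbols may be of cytochromes P450) held 2 members, gpc2 and EF1A. In it 7 genes stayed within a difference of 0.6 at any level, where 66.9% of all tested genes did.

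The storage protein and oil body genes taken by symbol, of kinds that mark the filling seed, were low in these libraries. Genes of these kinds without such a symbol were not looked for. The 6 tested genes so taken, of zein, oleosin and globulin, had group means from 0.581 to 13.86 FPKM, beside the high glyoxylate cycle transcripts. Of a wider list of 23 tested genes by symbol, which also takes in genes of other kinds, RAB15 (GRMZM2G165901) alone reached 300 FPKM in every group, with means of 813, 1467 and 818, and 0 were members.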

How the data were processed

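The deposited table holds 1 column per library of the authors' FPKM, per the file headers, a unit relative to gene length and mapped fragments. The submitters' processing notes name HISAT2, featureCounts, DESeq2 and the build B73 RefGen_v3, with no versions or roles. An empty unnamed column was not used, and 0 other columns held values. Genes that reached 1 FPKM in 3 or more libraries entered the test, on log2(FPKM + 1) in 1 limma (3.58.1, R 4.3.3) fit of all 9 libraries with a trended prior and Benjamini-Hochberg adjustment. The scripts were tested on simulated data. Group differences of members are of log2(group mean + 1), and fold changes of other genes are means of log2(FPKM + 1), which understates changes of low genes. Relative depth came from the steps between low values.

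Names come from a RefSeq table of another build (Zm-B73-REFERENCE-NAM-5.0), as symbol, or synonym where the symbol is a LOC number, and neighbours from its gene order. Gene lists were made by symbol pattern, which mixes some families. Described members were the 15 with the highest mean, all named ones, the 4 with the lowest and the 4 with the highest ratio of highest to lowest library, the 4 with the largest differences inside the limit and the 3 with the lowest group means, and outside the set the 3 nearest each limit. Neighbouring genes and the other genes of a member's family or list were named after their values were seen. Members and lists were chosen with earlier results of these data known. Alternatives changed the limits, scaling, pseudocount, filter, fit and libraries. One result on a gene outside the set is not reported here.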

Additional observations from a re-analysis of the deposited data

How the results depend on the processing

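The set was sensitive to its limits: it held 190 genes at a minimum of 200 FPKM, 29 at 500, 53 at a difference limit of 0.4 and 48 with every library at 300 FPKM. Other definitions and scalings gave 71 to 93, the set without NaCl replicates 1 and 3 held 94, and leaving out 1 library gave 64 (without NaCl replicate 2) to 90 (without NaCl replicate 1). In place of 0 members, limma called 3 for NaCl against CK without a trend, beside 25.9% of all tested genes. With array weights it called 1 member in each of the 3 comparisons, beside 24.4%, 23.7% and 16.4%. Leaving out 1 library gave 0 to 3, 0 to 2 and 0 to 0 members in the order of comparisons above. The shares of all tested genes were then 17.3% to 27.1%, 10.3% to 19% and 0.027% to 3.94%. Without NaCl replicates 1 and 3 only NaCl replicate 2 was left, and the fit assumed that it varied like the other groups. With that library alone, 35 members were lower in NaCl than in CK and 25 lowest in NaCl. Leaving out 1 library moved these counts of 54 and 42 to 50 to 62 and 37 to 54. The share of the FPKM sum was 9.14% to 9.58% in CK, 8.67% to 9.26% in NaCl and 9.33% to 9.50% in NaCl+MT with 1 library left out, and 9.66% in NaCl+MT after quantile normalisation. The causes were not tested. Alternatives on the 2 NaCl libraries for counts of members and lists, and on the genes outside the set, were chosen after seeing the data.

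Among all tested genes, the number called for NaCl+MT against CK was the least stable: 215 became 3663 with array weights, 72 with the replicate block, 54 with no filter, 123 with a filter at 5 FPKM, 148 with median-ratio scaling, 873 without NaCl replicate 1, 1065 without NaCl replicates 1 and 3, and 6 (without NaCl+MT replicate 3) to 46 with 1 CK or NaCl+MT library left out. For NaCl against CK, 5808 became 3684 with that filter, 3849 without CK replicate 1 and 2446 without NaCl replicates 1 and 3. For NaCl+MT against NaCl, 4164 became 2605 with that filter, 2280 and 2368 without NaCl+MT replicate 2 or 3 and 1641 without NaCl replicates 1 and 3. The replicate block left 0 members called in each comparison, beside 22%, 15.6% and 0.322% of all tested genes. The same differences chose the members, so nothing is read from this. Same-numbered libraries did not deviate together (correlations of -0.368 to 0.145, over 0.1 in 1 of 9 pairs, and 2 of 9 libraries closest to their own number), so the numbers were not taken as pairs. The absolute depth is unknown, which leaves counting error unmeasured.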

Other observations

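Aquaporin genes, whose proteins let water through membranes, were mostly outside the limit on differences. The 19 tested genes by symbol leave out sip1 (GRMZM2G374971), which is also listed as Zlp and whose kind is uncertain. Of these 19, 2 reached 300 FPKM in every group and 0 were members. Within a difference of 0.6 at any level stayed 3 of them, where 66.9% of all tested genes did. In limma 8 fell and 0 rose with NaCl, where 12.4% and 13.6% of all tested genes did, and 6 rose and 0 fell in NaCl+MT against NaCl, where 11.6% and 7.02% did. Without NaCl replicates 1 and 3 the counts were 7 falls and 3 rises. With sip1, whose group means were 381, 1118 and 551 FPKM, 1 gene rose with NaCl and 1 fell in NaCl+MT against NaCl. Both comparisons share the NaCl libraries, and sip1 was left out after its values were seen.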
